A study of Saccharomyces cerevisiae with 18 samples.

Results

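GCN4 and 9 genes that act on it were followed through mRNA and ribosome footprints of budding yeast lacking TMA20, TMA64 or both. The 10 genes were taken by name from a count table of 6713 open reading frames, by a rule that uses names and not measured values: GCN4, its kinase arm (GCN1, GCN20, GCN2), the eIF2B subunits (GCN3, GCD7, GCD1, GCD2, GCD6) and the cyclin gene PCL5. All 10 passed the filter on low counts in every comparison.

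The cells were the haploid Saccharomyces cerevisiae laboratory strain BY4741 (wt) and its derivatives Δtma20, Δtma64 and ΔΔtma20tma64. All 4 strains were MATa and carried his3delta1, leu2delta0, met15delta0 and ura3delta0. Each strain was grown to exponential phase in rich YPD or in minimal SD and treated with 100 µg/ml cycloheximide for 3 min before harvest, in every group. Each of 9 lysates was divided into an RNA-Seq and a Ribo-Seq library, which gave 18 libraries. The wt strain in YPD had 2 biological replicates (wt 1 and wt 2), and every other strain and medium had 1 lysate, so a difference between strains rests on a spread estimated over all lysates. The TMA20 deletion carried a KanMX resistance cassette in both Δtma20 and ΔΔtma20tma64. In the strains without TMA64 its coding sequence was replaced by a resistance cassette (KanMX in Δtma64, HygMX in ΔΔtma20tma64). The GEO labels describe SD as lacking amino acids, whereas the study's methods give SD with a complete amino acid supplement. All strains are auxotrophic for histidine, leucine, methionine and uracil, so growth in SD required that at least these were supplied. SD is therefore not taken here as medium without amino acids.

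General amino acid control is the response of yeast to a shortage of amino acids. Gcn1 and Gcn20 bind translating ribosomes and let the kinase Gcn2 respond to uncharged tRNA. Gcn2 then phosphorylates eIF2 and turns it into an inhibitor of its own exchange factor, eIF2B. Scarce active eIF2 lowers initiation on most mRNAs but lets ribosomes that have translated the first short upstream ORF (uORF) of the GCN4 leader pass the later ones and reach the GCN4 start codon. Gcn4 is the transcription factor that switches on amino acid synthesis genes, and Pcl5, a cyclin of the Pho85 kinase whose gene is itself a Gcn4 target, directs Gcn4 to degradation. Tma20 works with Tma22, and Tma64 alone, in removing 40S subunits from mRNA after termination. A restart downstream of a uORF needs a 40S subunit that has stayed on the mRNA. The study states that absence of these factors led to deregulated re-initiation.

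The GCN4 uORFs are shown because they are the elements on which ribosomes terminate before they can reach GCN4. They were read from the RefSeq R64 genome on the minus strand of chromosome V, 5′ to 3′, with each uORF from start to stop codon in capitals and the next 10 bases in lower case.
uORF 1: ATGGCTTGCTAAaccgattata
uORF 2: ATGTGTTAAatttattgaa
uORF 3: ATGTACCCGTAGaattttattc
uORF 4: ATGTTTCCGTAAcggttacctt
uORF 1 (chrV:140113-140124) began 361 nt before the GCN4 start codon, uORF 2 (chrV:140048-140056) 293 nt, uORF 3 (chrV:139928-139939) 176 nt and uORF 4 (chrV:139903-139914) 151 nt. uORF 3 and uORF 4 ended in the same sense codon, CCG, whereas uORF 1 ended in TGC and uORF 2 in TGT. Of the 10 bases after the stop codon, 3 were G or C after uORF 1, 1 after uORF 2, 1 after uORF 3 and 5 after uORF 4. The deposited counts cover annotated coding regions only, so footprints on the uORFs themselves were not analysed here and every GCN4 value below refers to the main coding region (V, 138918 to 139763, minus strand, 846 nt).

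Libraries differed in depth. Counts on open reading frames ranged from 5608491 to 11388027 in RNA-Seq and from 1668588 to 23532664 in Ribo-Seq. The labels held: TMA20 had 0 to 16 counts per library in the strains that lack it against 286 to 1654 elsewhere, and TMA64 had 0 to 7 against 133 to 978. LEU2, MET17 (the MET15 locus) and URA3 had at most 2 counts per library, whereas HIS3, whose allele is a partial deletion, had 241 to 3096. Summed over 6 genes of haploid a cells, RNA-Seq gave 1144 to 2274 CPM (counts scaled to the library total), and 4 alpha-cell genes together gave 38.9 to 59.1. The 2 alpha-cell pheromone genes had at most 15 counts per library, but in RNA-Seq STE3 had 39 to 152 and SAG1 204 to 413. SAG1 mRNA, at 28.6 to 42.6 CPM, overlapped that of the a-cell gene AGA2, at 33.0 to 93.4. In Ribo-Seq the a-cell sum was 681 to 1423 CPM and the alpha-cell sum 2.17 to 12.0. For the 10 genes, the wt replicates differed by 0.02 to 0.37 on the log2 scale in RNA-Seq and by 0.07 to 0.28 in Ribo-Seq, where the median difference over 5367 genes was 0.17 and 0.14.

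In YPD, GCN4 footprints were about doubled wherever TMA20 was missing, while GCN4 mRNA stayed within the wt replicates. Footprints of GCN4 in YPD were 31.5 CPM in wt 1, 28.1 in wt 2 and 28.8 in Δtma64, against 69.1 in Δtma20 and 60.8 in ΔΔtma20tma64. The pair without TMA20 lay above the others with no overlap, and the 95% exact Poisson intervals, which cover counting error only, reached at most 35.7 CPM in the lower 3 lysates and began at 54.3 in the upper pair. The underlying counts were 248, 175 and 166 against 580 and 313. GCN4 mRNA in the same lysates was 2053, 1587, 1571, 1898 and 1960 CPM in that order, so the lysates without TMA20 lay inside the range set by wt 1 and wt 2. In edgeR's quasi-likelihood test, GCN4 footprints rose 2.27-fold on TMA20 loss in YPD (log2 fold change 1.18 ± 0.14 SE, adjusted p = 2.10e-04 over 5369 genes). The log2 fold change of GCN4 mRNA was 0.13 ± 0.17 (adjusted p = 0.995), in a contrast with 0.0168% of genes called. This contrast called 0.875% of all genes in Ribo-Seq in either direction and 2 of the 10 genes, GCN4 and PCL5. The GCN4 call held with each lysate left out in turn, with adjusted p no higher than 0.0153.

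**Figure D1:**
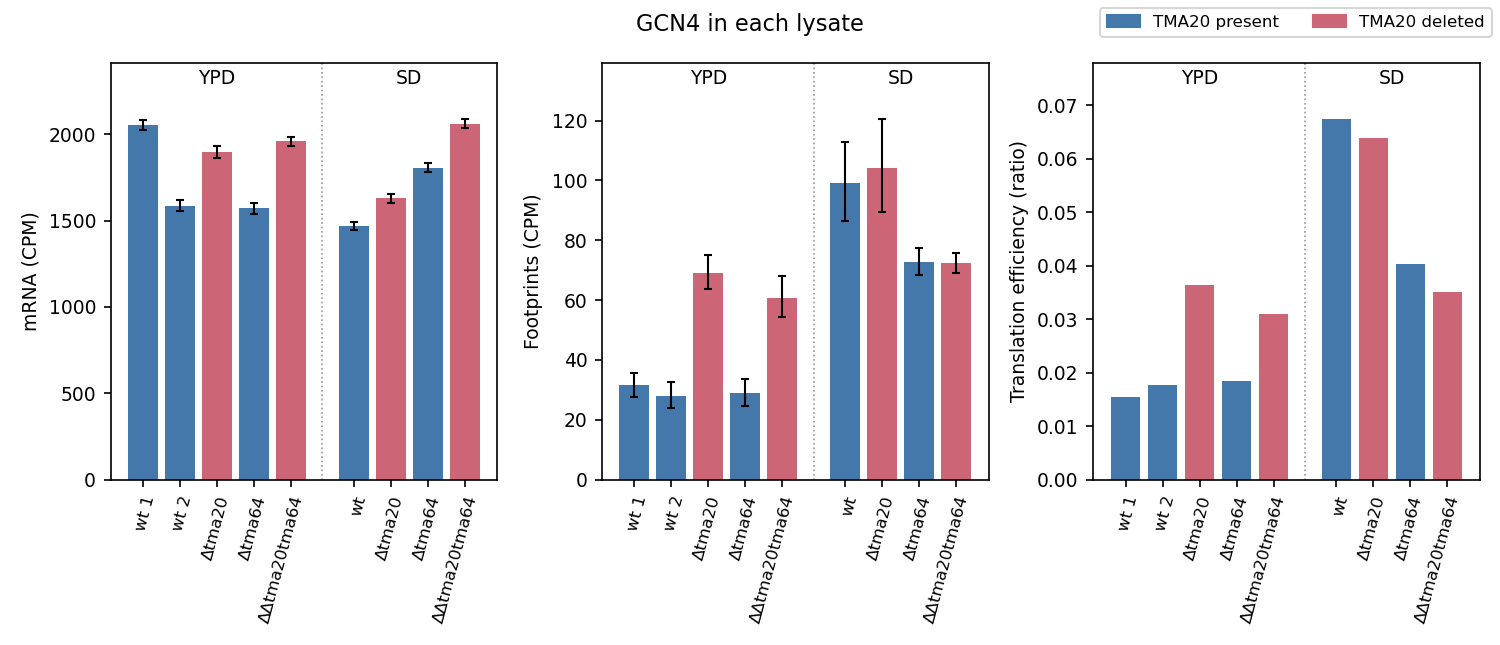
GCN4 in the 9 lysates: mRNA (CPM), footprints (CPM) and translation efficiency (footprint CPM over mRNA CPM), YPD at the left and SD at the right of each panel. Bars are single lysates, colours mark whether TMA20 was present, and error bars are 95% exact Poisson intervals of the counts. Footprints in YPD sit at 28.1 to 31.5 CPM with TMA20 and at 60.8 to 69.1 without it.

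Translation efficiency, the ratio of footprint CPM to mRNA CPM, followed the footprints. For GCN4 in YPD it was 0.0154 in wt 1, 0.0177 in wt 2, 0.0184 in Δtma64, 0.0364 in Δtma20 and 0.0310 in ΔΔtma20tma64, again without overlap. The fitted change on TMA20 loss was 2.04-fold (log2 1.03 ± 0.22 SE, unadjusted p = 1.61e-04), but it did not pass adjustment over 5935 genes (adjusted p = 0.464), and no gene passed in that contrast (0% called). It passed with DESeq2 (4 genes called in all) and with Δtma64 in YPD left out, where the smaller of the 2 adjusted p-values was 0.0290.

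In SD, GCN4 footprints were high in every strain, and the samples without TMA20 did not stand apart. They were 72.3 CPM in ΔΔtma20tma64, 72.8 in Δtma64, 99.1 in wt and 104 in Δtma20, from 1891, 957, 226 and 178 counts. The higher pair kept TMA64 and the lower pair lacked it. The higher pair also had the shallower Ribo-Seq libraries, with 2337313 (wt) and 1668588 (Δtma20) counts on open reading frames. The lower pair had 12443741 (Δtma64) and 23532664 (ΔΔtma20tma64). Genes other than open reading frames held 9.13% and 12.0% of counts in the higher pair, against 3.23% and 3.21%. TMA64 loss and these library differences cannot be told apart. The fitted change on TMA20 loss in SD was 0.02 ± 0.15 on the log2 scale (adjusted p = 0.975), a contrast with 1.3% of genes called and 0 of the 10, of which 0 also had an unadjusted p under 0.05 and 0 were called by DESeq2. GCN4 mRNA in SD was 2063, 1806, 1470 and 1630 CPM in the same order of strains, with a log2 fold change on TMA20 loss of 0.17 ± 0.18 (adjusted p = 0.886, 0.0503% of genes called).

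The response to TMA20 loss was unequal in the 2 media. The interaction for GCN4 footprints was -1.16 ± 0.20 on the log2 scale (adjusted p = 0.0234), and GCN4 was 1 of 6 genes called among 5369 (0.112%). It was lost when any of 6 lysates was left out (from YPD wt 2, Δtma20 or ΔΔtma20tma64, and from SD wt, Δtma64 or ΔΔtma20tma64), with adjusted p up to 0.724 and values from -1.28 to -0.98. The interaction in translation efficiency was -1.17 ± 0.32 (adjusted p = 1.0, 0% of genes called).

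Between media, GCN4 footprints were higher in SD than in YPD by 2.03-fold over all strains (log2 1.02 ± 0.23, adjusted p = 0.0146), in a contrast that called 23.3% of genes and 2 of the 10, GCN4 and PCL5. The 4 SD lysates, at 72.3 to 104 CPM, did not overlap the 5 YPD lysates, at 28.1 to 69.1. Genes other than open reading frames held 3.21% to 12.0% of Ribo-Seq counts in SD, against 0.394% to 1.37% in YPD. Whether this library difference adds to the difference between media was not tested. An exact two-sided permutation test on mean log2 CPM gave p = 0.0397 by medium. The smallest p that this exact permutation test allows with 4 against 5 lysates is 0.00794. For GCN4 footprints over both media, the exact permutation test gave p = 0.143 by TMA20 loss and p = 0.952 by TMA64 loss. For GCN4 translation efficiency, the exact permutation test gave p = 0.0317 by medium and p = 0.341 by TMA20 loss. The permutation test treats lysates as interchangeable, so its split by medium ignores strain and its splits by deletion ignore medium. Within the strain that had its replicates in YPD, wt footprints went from 28.1 and 31.5 CPM to 99.1, the widest step of any strain. ΔΔtma20tma64 went from 60.8 to 72.3. The call was lost without wt in SD or without Δtma64 in YPD (adjusted p up to 0.0600).

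GCN4 mRNA did not follow: 1571 to 2053 CPM in YPD against 1470 to 2063 in SD (log2 -0.09 ± 0.12, adjusted p = 0.596). GCN4 translation efficiency was 2.18-fold higher in SD (log2 1.12 ± 0.25, adjusted p = 0.0143), the sole call among the 10 in a contrast that called 6.59% of genes. That call was lost without wt in SD (adjusted p = 0.0989). In translation efficiency the highest YPD lysate, Δtma20 at 0.0364, lay above the lowest SD lysate, ΔΔtma20tma64 at 0.0351.

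Ordered by footprint level, the GCN4 lysates fell into 3 steps that exceeded counting error. wt 2, Δtma64 and wt 1 in YPD were lowest, with overlapping intervals that spanned 24.1 to 35.7 CPM. In the middle step, from 54.3 to 77.6 CPM, the interval of Δtma20 in YPD overlapped those of ΔΔtma20tma64 in YPD and of ΔΔtma20tma64 and Δtma64 in SD. The interval of ΔΔtma20tma64 in YPD, 54.3 to 68.0 CPM, ended below those of the 2 SD lysates. wt and Δtma20 in SD were highest and overlapped with each other, from 86.6 to 121 CPM. With 1 lysate per strain and medium outside wt in YPD, the spread between cultures that could order neighbours is not known.

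GCN4 combined abundant mRNA with few footprints in every lysate. Among 5367 genes its mRNA lay between percentiles 98.4 and 99.2 in all 9 lysates, whereas its translation efficiency lay between percentiles 0.335 and 1.40. Even the highest GCN4 efficiency, 0.0674 in wt in SD, was in the lowest 2% of genes. PCL5 was the next lowest of the 10 genes, between percentiles 1.55 and 8.55.

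PCL5 mRNA was called from YPD to SD, and PCL5 footprints both from YPD to SD and on TMA20 loss in YPD. On TMA20 loss in YPD its mRNA was higher as well but did not pass in edgeR. PCL5 mRNA was 83.2 CPM in wt 1, 85.5 in wt 2, 96.2 in Δtma64, 153 in Δtma20 and 137 in ΔΔtma20tma64 in YPD. In SD it was 234 in Δtma64, 269 in wt, 270 in Δtma20 and 372 in ΔΔtma20tma64. All SD lysates lay above all YPD lysates, and the rise was 2.53-fold (log2 1.34 ± 0.12, adjusted p = 1.96e-05), the sole mRNA call among the 10 in a contrast with 27.7% of genes called. In YPD, PCL5 mRNA was 1.81-fold the wt mean in Δtma20 and 1.62-fold in ΔΔtma20tma64. The fitted log2 fold change of PCL5 mRNA on TMA20 loss in YPD was 0.70 (adjusted p = 0.757 in edgeR and 0.0237 in DESeq2). The fitted change in translation efficiency was 0.52 and did not pass.

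Footprints of PCL5 in YPD were 9.03 CPM in wt 1, 9.62 in wt 2, 10.6 in Δtma64, 20.5 in Δtma20 and 27.4 in ΔΔtma20tma64. As for GCN4, the pair without TMA20 lay above the other 3, but for PCL5 the same held in mRNA. The footprint rise on TMA20 loss in YPD was 2.37-fold (log2 1.24 ± 0.18, adjusted p = 0.00285), and it did not pass without ΔΔtma20tma64 in YPD (adjusted p = 0.128). In SD the levels were 19.3 in wt, 27.1 in Δtma64, 30.4 in ΔΔtma20tma64 and 34.5 in Δtma20. Here wt was lowest, from 44 counts with an interval of 14.0 to 25.9 CPM, and the log2 fold change on TMA20 loss in SD was 0.38 ± 0.19 (adjusted p = 0.416). The difference between media was not called for PCL5 (interaction -0.87 ± 0.26, adjusted p = 0.471).

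Over both media, PCL5 was the sole one of the 10 genes whose footprints were called on TMA20 loss (log2 0.83 ± 0.17, adjusted p = 0.0203, 3.95% of genes called). That call was lost without Δtma20 in either medium, without Δtma64 in YPD or without ΔΔtma20tma64 in YPD, with adjusted p up to 0.0742. GCN4 over both media gave 0.65 ± 0.23 (adjusted p = 0.166), and it passed with DESeq2 and without ΔΔtma20tma64 in SD. For PCL5 mRNA the same contrast gave 0.53 ± 0.12 (adjusted p = 0.221, 0.0838% of genes called), which passed with DESeq2 (adjusted p = 0.00949). In translation efficiency on TMA20 loss over both media edgeR called 0.0674% of genes and 0 of the 10, and 0 of them had an unadjusted p under 0.05 or passed with DESeq2. PCL5 footprints rose 1.74-fold from YPD to SD (log2 0.80 ± 0.18, adjusted p = 0.00553), less than its mRNA, and its translation efficiency gave -0.54 ± 0.22 (adjusted p = 0.155).

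**Figure D2:**
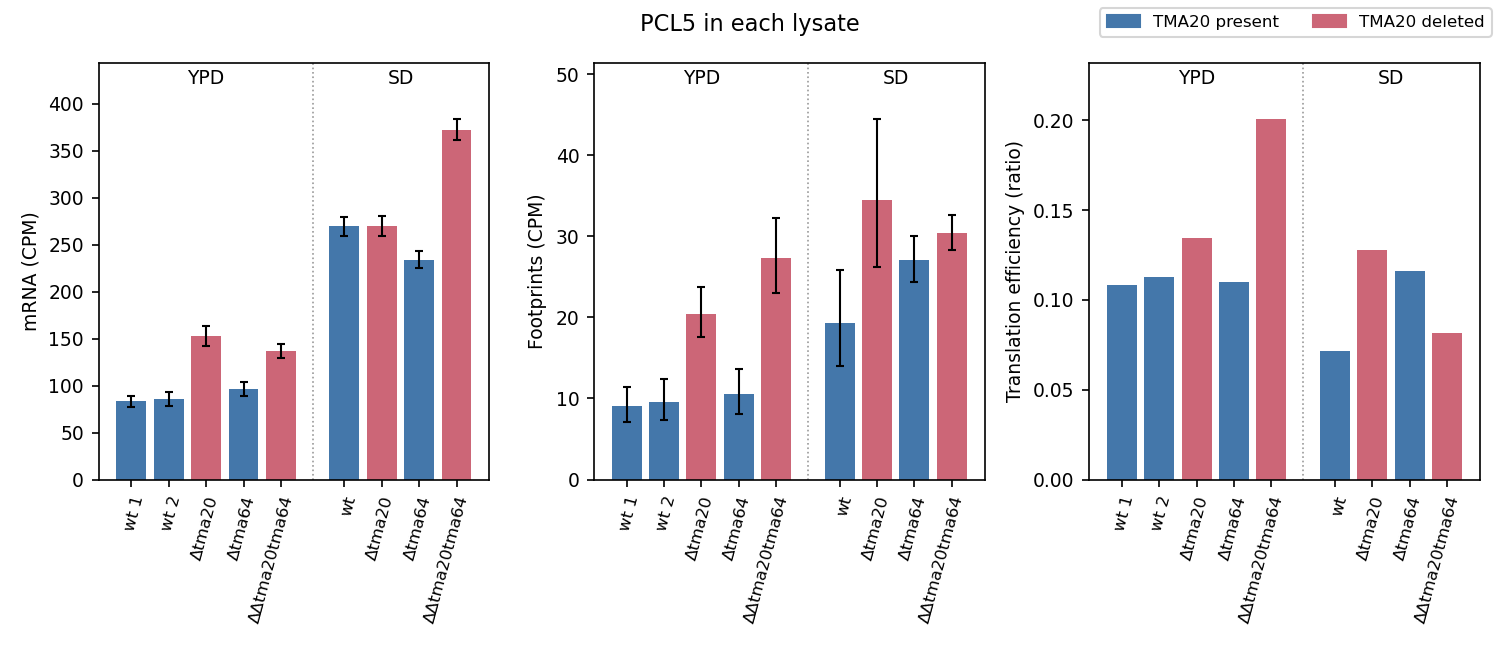
PCL5 in the 9 lysates: mRNA (CPM), footprints (CPM) and translation efficiency (ratio), with bars, colours and 95% exact Poisson intervals as for GCN4. mRNA is at 83.2 to 153 CPM in YPD and at 234 to 372 in SD.

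The other 8 genes moved little. On TMA20 loss in YPD their log2 fold changes lay between -0.11 and 0.07 in mRNA and between -0.06 and 0.24 in footprints. In SD they lay between -0.07 and 0.14 and between -0.20 and 0.24. In edgeR 0 of the 8 passed in either medium or in either assay, and 0 had an unadjusted p under 0.05. DESeq2 called 0 of them as well. The largest footprint value was that of GCD1, the γ subunit of eIF2B, which had 0.24 ± 0.08 over both media (unadjusted p = 0.0119, adjusted p = 0.122). GCD1 footprints were 105, 112, 121, 125 and 117 CPM in wt 1, wt 2, wt in SD, Δtma64 in YPD and Δtma64 in SD, against 139, 142, 130 and 140 in the lysates without TMA20. The 4 lysates without TMA20 were the highest 4 of the 9.

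**Figure D3:**
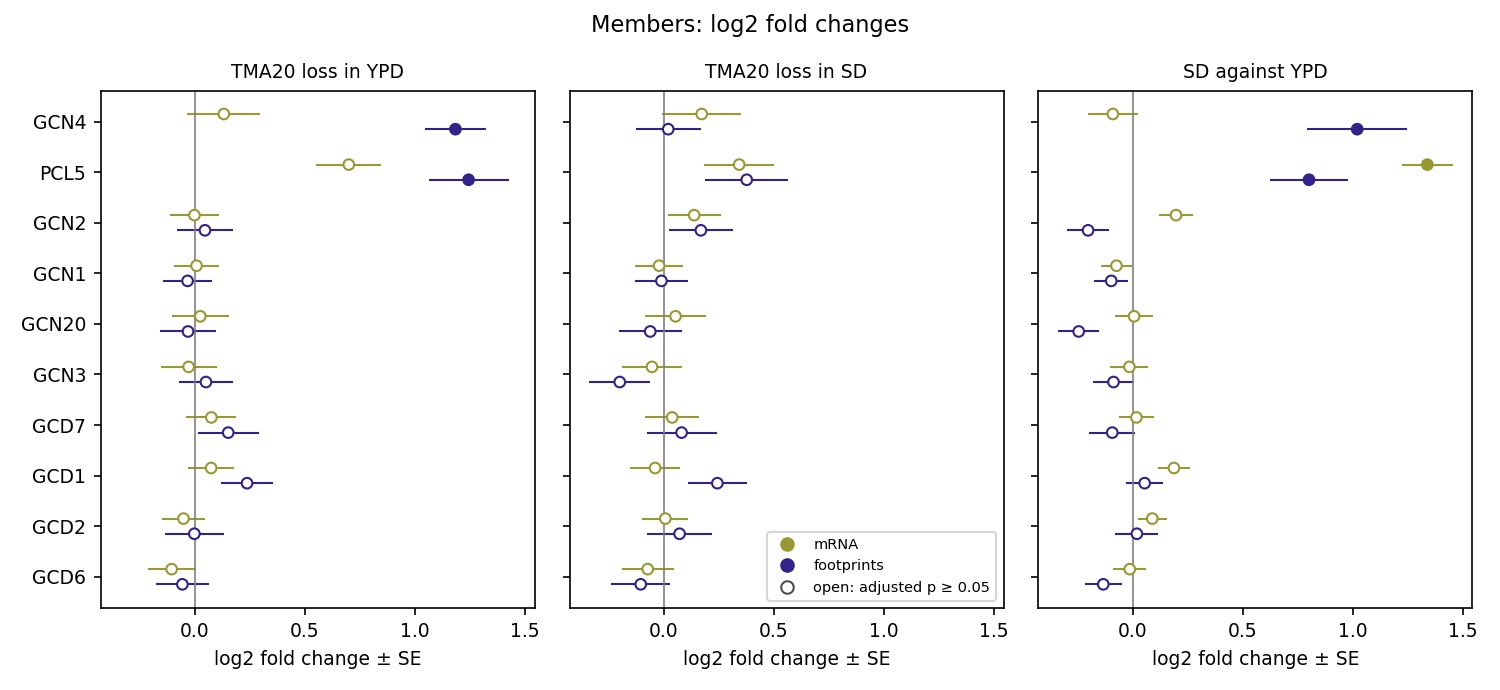
Log2 fold changes of the 10 genes in mRNA and footprints, for TMA20 loss in YPD, TMA20 loss in SD and SD against YPD. Bars are ± 1 SE of the fit, and filled points had an adjusted p under 0.05. The 8 genes other than GCN4 and PCL5 lie between -0.25 and 0.24 in all panels, and PCL5 lies above this range in each. GCN4 footprints lie above it on TMA20 loss in YPD and in SD against YPD. On TMA20 loss in SD they lie within it, as GCN4 mRNA does in every panel.

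In the kinase arm, GCN2 had the least mRNA of the 3 per length and the fewest footprints. Per kilobase of coding length, GCN2 footprints were 9.86 to 13.8 CPM over the 9 lysates, GCN1 footprints 82.9 to 97.1 and GCN20 footprints 76.4 to 115. GCN1 and GCN20, whose proteins act as a complex, had footprints in a ratio of 0.79 to 1.08, while their mRNA was in a ratio of 0.47 to 0.60. Their coding lengths were 8019 and 2259 nt, and an effect of length on the mRNA ratio was not tested. GCN2 footprints were 0.12 to 0.15 of those of GCN1. A dubious ORF annotated as lying wholly on GCN20 held 0 counts in all libraries. A read that maps to both features on the same strand is not counted, so reads from the shared stretch may be missing and GCN20 levels per length are uncertain.

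Between media, GCN2 mRNA gave 0.20 ± 0.08 on the log2 scale (adjusted p = 0.0900) and its footprints -0.20 ± 0.10 (adjusted p = 0.138). GCN2 translation efficiency was 0.694, 0.846, 0.735, 0.765 and 0.783 in wt 1, wt 2, Δtma64, Δtma20 and ΔΔtma20tma64 in YPD. In SD it was 0.552 in wt, 0.577 in Δtma64, 0.634 in Δtma20 and 0.542 in ΔΔtma20tma64. All SD lysates lay below all YPD lysates. The fitted value of -0.39 ± 0.13 had an adjusted p of 0.0640, and it passed with the lysate as a replicate block, with DESeq2 and without wt 1, the smallest adjusted p being 0.0294. GCN20 footprints gave -0.25 ± 0.09 in SD against YPD (adjusted p = 0.0715), which passed without ΔΔtma20tma64 in either medium (smallest adjusted p 0.0415). GCN1 footprints were the steadiest of the 10 genes, with 664 to 778 CPM and a coefficient of variation of 5.82% over the 9 lysates.

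The eIF2B subunits, which form a complex with equal copies of each, had more even footprints than mRNA. Per kilobase, mRNA was highest for GCN3 (the α subunit, which mediates inhibition by phosphorylated eIF2, at 155 to 195 CPM) and lowest for GCD2 (δ, at 68.7 to 81.3) in all 9 lysates. The medians of the others were 138 for GCD7 (β), 116 for GCD1 (γ) and 84.0 for GCD6 (ε, the catalytic subunit). Coding lengths were 918 nt for GCN3, 1146 for GCD7, 1737 for GCD1, 1956 for GCD2 and 2139 for GCD6. The shorter subunits thus had more mRNA per kilobase, and an effect of length on these values was not tested. The ratio of the highest to the lowest subunit was 2.00 to 2.69 in mRNA (median 2.20). In footprints it was 1.19 to 1.54 (median 1.36), lower than in mRNA in 9 of 9 lysates. Footprints per kilobase ranged from 56.2 (GCD2) to 93.0 CPM (GCD7) over all subunits and lysates. GCD2 was the lowest in footprints too in all 9 lysates, and the highest was GCN3 in most lysates but GCD7 or GCD1 in the others. With all lysates in the fit, edgeR called 0 of the 5 subunits in any contrast, as did DESeq2, and GCD1 alone had an unadjusted p under 0.05, in 2 contrasts. One was its footprints on TMA20 loss over both media. The other was its mRNA in SD against YPD, 0.19 on the log2 scale (adjusted p = 0.0820), which passed without wt 1 (adjusted p = 0.0348).

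**Figure D4:**
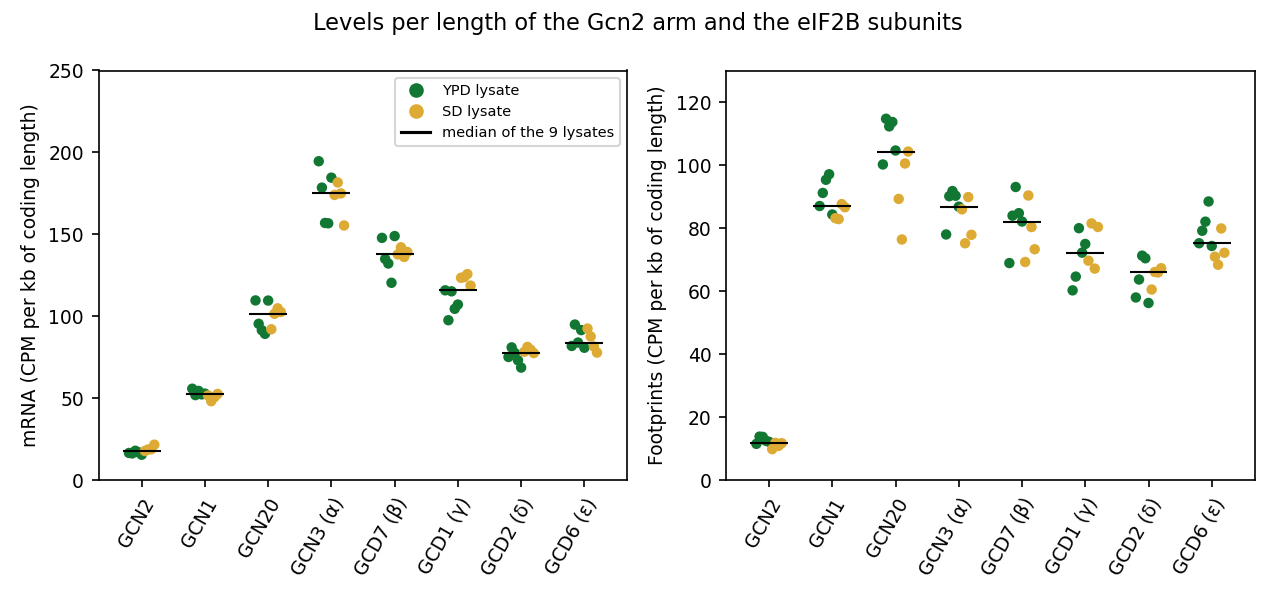
mRNA and footprints per kilobase of coding length (CPM per kb) for the Gcn2 arm and the 5 eIF2B subunits. Points are the 9 lysates, coloured by medium, and lines are medians. GCN3 mRNA is at 155 to 195 and GCD2 mRNA at 68.7 to 81.3, while the footprints of all 5 subunits lie between 56.2 and 93.0.

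TMA64 loss called 0 of the 10 genes in any assay or medium by edgeR or by DESeq2, with edgeR calling 0.0168% of all genes in mRNA and in translation efficiency, and in footprints 0.0559% over both media, 0.0373% in YPD and 0.0745% in SD. In Ribo-Seq over both media 0 of the 10 had an unadjusted p under 0.05, as in RNA-Seq in either medium, and in SD 1 had (GCN20, 0.31 ± 0.13, adjusted p = 0.298). GCN4 footprints on TMA64 loss gave -0.04 ± 0.33 in YPD (adjusted p = 0.999) and -0.48 ± 0.35 in SD (adjusted p = 0.588). In translation efficiency the SD value was -0.81 ± 0.35 (unadjusted p = 0.0403, adjusted p = 0.626): 0.0674 in wt and 0.0639 in Δtma20 against 0.0403 in Δtma64 and 0.0351 in ΔΔtma20tma64. With 4 SD lysates, each group of a strain held 1 sample. The SD lysates without TMA64 also had the deeper Ribo-Seq libraries, so TMA64 loss and depth cannot be told apart.

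The footprint profile of GCN4 over the 9 lysates was compared with those of 4853 genes. The highest Pearson correlations of log2 CPM were those of PFA5 (a palmitoyltransferase, r = 0.958), GIS2 (0.956), BUD20 (0.946), ALB1 (0.942) and RPF2 (0.942), the last 3 of which act in 60S subunit assembly. In translation efficiency they were PFA5 (r = 0.987), DAT1 (0.941), ROG3 (0.924), LSO2 (0.921) and DEP1 (0.918). PCL5 footprints had r = 0.886, the highest of the other 9 genes, whereas in translation efficiency PCL5 had r = -0.199 with GCN4. These values describe 9 libraries that share strains and media, and the libraries also differ in depth.

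Other parts of the pathway were examined as lists drawn up with earlier results of these data in view. In a list of 45 Gcn4 target genes, mostly of amino acid synthesis, TMA20 loss went with opposite medians in the 2 media. In YPD, 35 of 45 had a footprint log2 fold change above 0, with a median of 0.17 against -0.002 over all genes. In mRNA 37 of 45 were above 0, with a median of 0.15 against -0.007 over all genes. With lysates omitted in turn, an alternative chosen after seeing the data, 33 to 37 of the 45 were above 0 in footprints (median 0.13 to 0.20) and 26 to 42 in mRNA (median 0.03 to 0.33), the lowest mRNA value being that without ΔΔtma20tma64 in YPD. Of the 45, 1 rose past the test in footprints, where 0.875% of all genes were called: ILV3 (a dihydroxyacid dehydratase of branched-chain synthesis, 0.62 ± 0.12, adjusted p = 0.0199). Its call was lost without either wt replicate in YPD, without Δtma20 in YPD or without ΔΔtma20tma64 in YPD (adjusted p up to 0.329).

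In SD, 13 of the 45 target genes were above 0 in footprints, with a median of -0.15 against -0.002 over all genes. In mRNA 5 of 45 were above 0, with a median of -0.19 against 0.003. The 45 genes were measured in the same 4 SD lysates, so they are not independent observations. The omissions gave 9 to 15 in footprints (median -0.21 to -0.11) and 5 to 9 in mRNA (median -0.32 to -0.11). Without ΔΔtma20tma64 in SD the mRNA count was 9, without Δtma64 in SD it was 8, and in both cases the median stayed below 0. Of the 45, 4 fell past the test in footprints, where 1.3% of all genes were called. Named after their values were seen, SER3 had -1.34 ± 0.24, ARG1 -0.75 ± 0.15 and LYS12 -0.54 ± 0.13, with adjusted p from 0.0221 to 0.0482. These 3 calls were lost without Δtma64 in SD or without ΔΔtma20tma64 in SD. SER3 was also lost without wt 2 or Δtma64 in YPD, and LYS12 without wt 2, wt in SD, Δtma20 in either medium or ΔΔtma20tma64 in YPD (adjusted p up to 0.496 over the 3 genes). LYS12 was lost with unstranded counts as well (adjusted p = 0.0560). ARG1, the argininosuccinate synthetase gene, shared with GCN4 a called interaction between TMA20 loss and medium (-1.24 ± 0.21, adjusted p = 0.0234), which was lost without ΔΔtma20tma64 in either medium, without Δtma64 in SD or without Δtma20 in YPD (adjusted p up to 0.724). Over both media 1 of the 45 passed in footprints, where 3.95% of all genes were called, so the count says nothing particular of the list. It was HIS1 (0.39 ± 0.08, adjusted p = 0.0203), lost without Δtma20 or Δtma64 in either medium or without ΔΔtma20tma64 in YPD (adjusted p up to 0.0805).

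TMA64 loss, which was estimated from the same lysates, gave a list median below 0 in SD as well. In SD Ribo-Seq, TMA64 loss cannot be told apart from library depth, which was greater in the lysates without TMA64. In footprints 10 of the 45 were above 0 in SD (median -0.14 against 0.02 over all genes) and 19 in YPD (median -0.04 against -0.004). In mRNA 15 were above 0 in SD (median -0.06 against 0.003) and 33 in YPD (median 0.05 against 0.004). The smallest adjusted p of a target gene in these 4 contrasts was 0.127 in edgeR, for footprints in SD, where 8 of the 45 had an unadjusted p under 0.05.

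**Figure D5:**
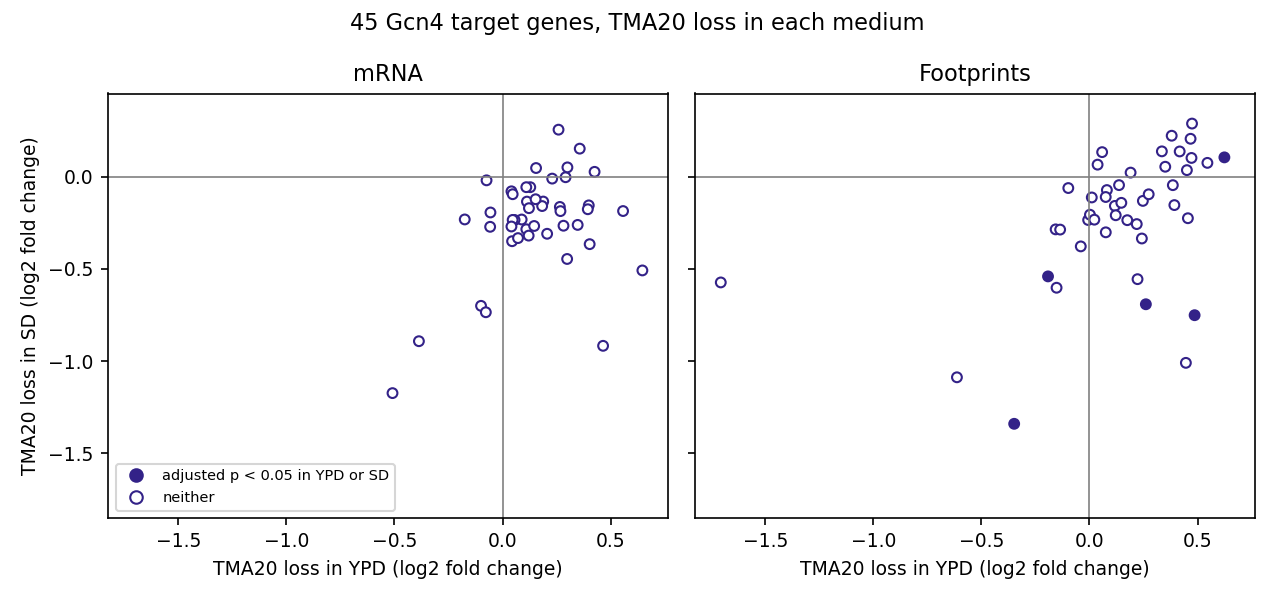
Log2 fold changes of 45 Gcn4 target genes on TMA20 loss in YPD (horizontal) and in SD (vertical), for mRNA and footprints. Filled points had an adjusted p under 0.05 in YPD or SD. In footprints 35 of 45 lie right of 0 and 13 of 45 above 0.

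From YPD to SD the target genes divided: 12 rose and 10 fell in footprints, 22 of 45 where 23.3% of all genes were called. SNZ1 and SNO1, paired genes of vitamin B6 synthesis, rose most (4.37 ± 0.27 and 3.16 ± 0.46 on the log2 scale), followed by SER3 (2.70 ± 0.27) and ARG1 (2.67 ± 0.27). Of those that fell, named after their values were seen, ADE4 of purine synthesis had -1.86 ± 0.15 and HIS5 of histidine synthesis -0.87 ± 0.12. These 6 calls held with each lysate left out (adjusted p at most 0.00867).

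In the 4 other lists the shares called in footprints lay near or below those of all genes for SD against YPD (23.3%), or rested on 1 gene for TMA20 loss over both media (3.95%), so the calls are given as values of single genes. Of 5 genes of eIF2, eIF5 and partners, 0 passed on TMA20 loss over both media in either assay with edgeR (1 in Ribo-Seq at an unadjusted p under 0.05), and in SD against YPD CDC123, an assembly factor of eIF2, rose in footprints (0.36 ± 0.11, adjusted p = 0.0294). Of 5 Gcn2 regulators, RBG2, a GTPase that partners the Gcn1-binding protein Gir2, rose in SD (0.44 ± 0.11, adjusted p = 0.0109). Of 11 genes of start codon selection and scanning, HCR1 (eIF3j) rose on TMA20 loss over both media (0.44 ± 0.11, adjusted p = 0.0412) and RPG1 (eIF3a) rose in SD (0.40 ± 0.11, adjusted p = 0.0207). Of 8 genes of Gcn4 turnover and coactivation, CDC34, the ubiquitin-conjugating enzyme of Gcn4 turnover, fell in SD (-0.36 ± 0.10, adjusted p = 0.0186), and MBF1, a Gcn4 coactivator, rose (0.26 ± 0.09, adjusted p = 0.0401).

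Each of these 6 calls was lost in at least 2 of the 9 omissions. RBG2 was lost without wt or Δtma20 in SD, and CDC34 without Δtma20 or Δtma64 in SD or ΔΔtma20tma64 in YPD. RPG1 was lost without wt 2, wt in SD or Δtma20 in either medium, and CDC123 without Δtma64 or ΔΔtma20tma64 in either medium, Δtma20 in YPD or wt in SD, and also with DESeq2 and with unstranded counts. HCR1 was lost without wt 2, Δtma20 or Δtma64 in either medium, or ΔΔtma20tma64 in YPD, and MBF1 without any lysate except those of ΔΔtma20tma64. The adjusted p went up to 0.224 over these 6 genes.

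In mRNA for SD against YPD, where 27.7% of all genes were called, 1 of 5 Gcn2 regulators passed, 3 of 11 genes of start codon selection and 2 of 8 of Gcn4 turnover, all named after their values were seen. SUI1 (eIF1) rose by 0.47 ± 0.07 (adjusted p = 7.06e-04) and kept its call in all 9 omissions. TIF11 (eIF1A, 0.28 ± 0.07), TRM61 (0.29 ± 0.09) and TAP42 (0.27 ± 0.07) rose, and CDC34 (-0.42 ± 0.13) and HRT1 (-0.31 ± 0.08) fell, with adjusted p from 0.0143 to 0.0382. TAP42 was lost without wt in SD, TIF11 without wt or Δtma64 in SD, HRT1 without ΔΔtma20tma64 in YPD or with unstranded counts, TRM61 in all omissions but those of wt 1 and Δtma64 in SD, and CDC34 in all but those of wt 1 and Δtma20 in SD (adjusted p up to 0.144). In translation efficiency, where 6.59% were called, SUI1 fell by 0.49 ± 0.10 (adjusted p = 0.00403, at most 0.0375 in the omissions). SIT4 (0.55 ± 0.16), HRT1 (0.49 ± 0.14) and MBF1 (0.48 ± 0.13) rose, with adjusted p from 0.0318 to 0.0451. SIT4 and MBF1 were lost in every omission except that of wt 1, and HRT1 in every one except those of wt 1 and ΔΔtma20tma64 in YPD. HRT1 was also lost with RLE factors or unstranded counts (adjusted p up to 0.318).

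The Gcn4 binding motif was also sought before the 10 genes. TGACTCA on either strand was found within 500 nt upstream of the start codon in 241 of 6025 genes (4.00%) and in 0 of the 10, and the shorter TGACTC on either strand in 760 genes (12.6%) and in 0 of the 10. The 7-base word contains the 6-base one, and a window without these letters says nothing of the factor itself.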

How the data were processed

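RNA-Seq (oligo(dT)-selected mRNA) and Ribo-Seq (RNase I monosome footprints) libraries came from portions of the same 9 lysates. According to the labels and methods, the authors trimmed reads with cutadapt 1.18, then mapped and counted them with STAR 2.5.3a on build R64-1-1. The deposited values are raw counts per gene, unnormalized; those for the sense strand were used, and rows of no gene were left out (the median share of reads outside features was 23.6% in RNA-Seq and 1.09% in Ribo-Seq). Depth was 5608491 to 11388027 and 1668588 to 23532664 counts per library.

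Genes passing filterByExpr (minimum count 10) were tested with edgeR 4.0.16 in R 4.3.3 (TMM, robust quasi-likelihood, Benjamini-Hochberg over all genes tested, threshold 0.05). The model held TMA20 loss, TMA64 loss and medium, with interactions for within-medium effects. Translation efficiency was the interaction with assay over 18 libraries. The main fit held no lysate term, so its SEs and p-values take the 2 libraries of a lysate as independent. CPM values are TMM-scaled, and correlations used a prior count of 2 and genes with a mean log2 CPM of at least 3. Alternatives were DESeq2 1.42.0, RLE factors, no filter, unstranded counts, each medium alone, each lysate omitted, and the lysate as a block. Scripts were tested on simulated data. Only the 2 wt replicates in YPD are stated to be biological, so other spread is pooled.

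Fold changes are named for all 10 genes; from each list, up to 4 genes with the largest footprint change among those passed are named for TMA20 loss over both media, TMA20 loss in YPD and SD against YPD, and the 5 genes most correlated with GCN4. The values of 1 target gene that passed in SD are not reported here. The genes and lists were chosen with earlier results of these data known. The lysate pairing comes from the study's methods. Deviations from the model in the 2 libraries of a lysate had correlations of 0.04 to 0.27, and the same lysate gave the highest value in 6 of 9 cases.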

Additional observations from a re-analysis of the deposited data

Results flagged for a closer look

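The change in GCN4 footprints on TMA20 loss was tested for a difference between media. The interaction of -1.16 on the log2 scale (adjusted p = 0.0234) passed: GCN4 footprints were higher without TMA20 in YPD and not in SD. The call held in only 3 of 9 omissions of a lysate (adjusted p up to 0.724). The interaction in translation efficiency did not pass.

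Across 60 groups (10 genes, 3 measures, 2 media), Dixon's test at the 95% level marked 2 samples, where chance gives about 1 in 20 groups, or 3. The translation efficiency of GCD1 in YPD was 0.520 in wt 1, below the 0.662 of the next lysate, wt 2. The translation efficiency of PCL5 in YPD was 0.201 in ΔΔtma20tma64, above the 0.134 of the next lysate, Δtma20.

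Opposite-strand counts over the 10 genes stayed at 0 to 51 per library and in no mutant lysate exceeded the wt level in the same medium beyond counting error.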

How the results depend on the processing

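The rise of GCN4 footprints on TMA20 loss in YPD was called under all 14 alternatives (log2 1.11 to 1.30), and the rise of PCL5 mRNA in SD under all 13 (1.20 to 1.47). DESeq2 raised the number of the 10 genes called to 1 (PCL5) in mRNA on TMA20 loss over both media and in YPD, to 2 (GCN4 and PCL5) in footprints over both media, to 2 (GCN4 and GCN2) in translation efficiency for SD against YPD, and to 1 (GCN4) in translation efficiency on TMA20 loss in YPD. Over all genes, DESeq2 against edgeR called 52 against 5 in mRNA over both media, 6 against 1 in YPD and 26 against 3 in SD on TMA20 loss, 90 against 47 in footprints on TMA20 loss in YPD, 16 against 6 for the interaction, 6 against 3 in footprints on TMA64 loss over both media and 47 against 4 in SD, 14 against 4 in translation efficiency on TMA20 loss over both media, and 634 against 391 in translation efficiency for SD against YPD. The 4 SD lysates fitted alone gave 583 against 3 genes in mRNA and 281 against 70 in footprints on TMA20 loss in SD, with 0 of the 10. With the lysate as a replicate block, translation efficiency for SD against YPD gave 2 of the 10 (GCN4 and GCN2), with 573 genes in all, and no other count among the 10 changed.

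With lysates omitted in turn, the number of the 10 called ranged from 1 to 2 in mRNA for SD against YPD, 0 to 2 in its translation efficiency, 1 to 2 in its footprints, 0 to 2 in footprints on TMA20 loss over both media, 1 to 2 in YPD, 0 to 1 for the interaction, and 0 to 1 in translation efficiency on TMA20 loss in YPD. Values of GCN4 that were not called changed sign in such omissions: TMA20 loss in SD in footprints (-0.11 to 0.20), in mRNA (-0.0066 to 0.31) and in translation efficiency (-0.43 to 0.17), TMA20 loss in YPD in mRNA (-0.028 to 0.29), and TMA64 loss in YPD in footprints (-0.34 to 0.37). With CPM by total counts, the difference of GCN4 footprints by TMA64 was 0.027 in place of -0.06. In the omissions the footprint calls over all genes on TMA20 loss ranged from 4 to 94 in YPD, where the lowest was without ΔΔtma20tma64 in YPD, from 9 to 149 in SD and from 56 to 271 over both media. TMA64 loss in SD called 15 genes in footprints with RLE factors and 16 without the filter, against 4. The cause was not tested. Depth limits PCL5 most: 44 to 795 footprint counts per library.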
